A study of Mus musculus with 16 samples.

Results

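In the livers of oxaliplatin-treated mice, 23 named genes had lower normalized counts in every library labelled CRYDKO than in any wild-type (WT) library, by a clear margin. They were chosen from the deposited normalized counts themselves: the lowest of 8 WT libraries had to be at least 1.5 times the highest of 8 CRYDKO libraries, and the WT mean had to be at least 20. Predicted genes (symbols with Gm and a digit, LOC or Rik), the Mup, Cyp, Raet1, Clec2, Saa and Ifi families and 13 single symbols were left out by name. The 23 genes came from 19592 in the normalized table, which lists genes of a count table of 40840. Of 12380 genes with a WT mean of at least 20, 54 passed the margin (0.436%), and of the 11249 with a name that was kept, 23 did (0.204%). Nothing is read from these shares or from any CRYDKO to WT difference of the 23 genes, since the choice fixed the direction. The same margin in the opposite direction, with a CRYDKO mean of at least 20, was met by 47 of 12082 genes (0.389%).

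Poly(A)-selected liver RNA of male C57BL/6J mice was sequenced in 16 libraries of 4 groups with 4 libraries each: CRYDKO at CT16, CRYDKO at CT8, WT at CT16 and WT at CT8. CRYDKO mice carry knockouts of both cryptochromes (Cry1-/-Cry2-/-), bred from heterozygotes, and WT mice carry neither. All mice were 12 to 16 weeks old, were kept for 3 weeks under 12 h of light and 12 h of dark, were in darkness from 3 days before the drug, and received oxaliplatin, a platinum chemotherapy drug, at 12 mg/kg into the peritoneum. CT is circadian time, the hour of the animal's own day in darkness, and CT16 and CT8 are the hours of dosing. The design text names a single dose and also dosing on 3 days, and the hour of liver collection is not stated. No untreated mice were analysed here, so every difference is one between drug-treated livers. Separate animals are not named behind the 4 libraries of a group, so p-values measure only how far these samples spread, and that spread may be technical. Reads counted in genes ranged between 18083916 and 24967995 per CRYDKO library and between 21083769 and 29934138 per WT library, which limits precision most for the genes with few reads.

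The targeted genes were read first. Cry1 had 617, 599, 558 and 689 normalized counts in CRYDKO CT16 libraries and 591, 613, 624 and 470.1 in CRYDKO CT8 libraries, against 171, 119.9, 123 and 141 in WT CT16 libraries and 363, 209, 216 and 319.9 in WT CT8 libraries. Every library labelled CRYDKO was thus above every WT library for the gene that the label says was knocked out (log2 difference 1.59 ± 0.12 (SE), adjusted p = 3.59e-08; edgeR quasi-likelihood test, Benjamini-Hochberg adjustment). Cry2 had 641, 557, 591 and 718 normalized counts in CRYDKO CT16 libraries and 533, 670.2, 585 and 764 in CRYDKO CT8 libraries, against 1366, 1207, 1025 and 1219.5 in WT CT16 libraries and 1086, 1199.7, 916 and 1022 in WT CT8 libraries. Cry2 was lower in all 8 CRYDKO libraries but far from absent (log2 difference -0.84 ± 0.10 (SE), adjusted p = 2.83e-06 by the same test). The deleted stretch of either gene is not described in the labels, and whole-gene counts cannot locate it, so CRYDKO below means the libraries labelled CRYDKO.

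CRY1 and CRY2 are repressors of the circadian clock. They hold back CLOCK and BMAL1, which act at E-box sequences in the promoters of clock genes and of many liver genes. Clock output also runs through D-box sequences, bound by DBP and NFIL3, and through sequences bound by ROR and REV-ERB proteins. The 23 genes form no single pathway. They include metabolic and mitochondrial genes (Upp2, Ttc39b, Slc25a40, Mterf2), a protein-folding gene of the endoplasmic reticulum (Dnajc10), genes of DNA replication, the cell cycle and RNA handling (Mcm10, Amn1, Rexo5, Celf2), zinc finger and other transcription-related genes (Zfp871, Zfp872, Zmym5, Olig1), genes of the membrane and of muscle structure (Gpr12, Ncam2, Lrit2, Neb, Dmd), the less well described Ccdc171 and Spata1, and the non-coding RNA genes Dleu2, Hectd2os and AI463229.

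Because the genes were chosen as lower together, the 250 bases upstream of their annotated starts were searched on both strands for 3 clock-related motifs: the E-box CACGTG, the D-box TTANGTAA and AGGTCA, the core of the ROR and REV-ERB sequence. RefSeq promoters (GRCm38.p6) were matched by symbol for 20 of the 23 genes, and not for AI463229, Neb and Olig1. The E-box was present for 2 of the 20 genes (10%), Dleu2 and Zfp871, against 1854 of 27025 genes with a promoter in the table (6.86%). The D-box was present for 0 of the 20, against 659 of all genes (2.44%). AGGTCA was present for 4 of the 20 (20%), Celf2, Lrit2, Upp2 and Zfp871, against 4260 of all genes (15.8%). A match only describes the letters in the window, and a window without one says nothing about a factor.

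The windows below show what these matches look like, with the motif in capitals and each sequence written 5′ to 3′ on the strand of its gene. Upp2 (chr2:58754934-58755183, plus strand) is shown for its 2 copies of AGGTCA, Lrit2 (chr14:37067779-37068028, plus strand) for a copy on the other strand, read as TGACCT, and Zfp871 (chr17:32788288-32788537, minus strand) and Dleu2 (chr14:61682374-61682623, minus strand) for the E-box. Mterf2 (chr10:85128028-85128277, minus strand) holds none of the 3 motifs and is shown because it is the annotated gene next to Cry1. The build is GRCm38.p6.
Upp2: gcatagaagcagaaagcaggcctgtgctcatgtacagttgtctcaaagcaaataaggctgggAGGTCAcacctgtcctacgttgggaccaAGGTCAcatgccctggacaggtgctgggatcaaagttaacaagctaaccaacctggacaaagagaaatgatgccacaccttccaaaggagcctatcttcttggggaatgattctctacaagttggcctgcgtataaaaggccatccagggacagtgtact
Lrit2: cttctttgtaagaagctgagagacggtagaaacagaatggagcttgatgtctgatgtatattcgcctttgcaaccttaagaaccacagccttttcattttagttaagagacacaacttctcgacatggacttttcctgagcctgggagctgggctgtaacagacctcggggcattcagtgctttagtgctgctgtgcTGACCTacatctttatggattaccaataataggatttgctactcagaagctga
Zfp871: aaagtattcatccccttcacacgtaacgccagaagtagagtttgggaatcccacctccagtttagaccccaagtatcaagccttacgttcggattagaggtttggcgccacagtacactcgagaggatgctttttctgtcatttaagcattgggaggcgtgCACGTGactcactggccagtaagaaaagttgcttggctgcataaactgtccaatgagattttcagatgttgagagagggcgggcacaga
Dleu2: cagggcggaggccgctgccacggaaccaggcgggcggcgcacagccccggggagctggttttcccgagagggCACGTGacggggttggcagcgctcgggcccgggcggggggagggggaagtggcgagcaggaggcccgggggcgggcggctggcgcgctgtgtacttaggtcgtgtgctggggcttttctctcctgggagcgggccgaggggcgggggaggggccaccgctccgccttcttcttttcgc
Mterf2: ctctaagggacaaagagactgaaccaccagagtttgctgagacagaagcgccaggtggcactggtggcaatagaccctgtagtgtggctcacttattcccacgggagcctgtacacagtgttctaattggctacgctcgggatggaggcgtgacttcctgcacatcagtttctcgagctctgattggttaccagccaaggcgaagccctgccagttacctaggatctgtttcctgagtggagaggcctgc

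The CRYDKO mean of the 23 genes was between 6.69% (Gpr12) and 51.1% (Dmd) of the WT mean, with a median of 29.1%. Put the other way, WT over CRYDKO ratios ran between 1.96 and 15 with a median of 3.43. The median over the genes of the fitted log2 difference, CRYDKO minus WT, was -1.76, beside -0.01 over all 14484 genes tested. The choice of the genes fixed the direction of the former, so nothing is read from the gap. All 23 genes passed the filter on low counts. In liver tissue as a whole, fewer cells of a type and less RNA per cell cannot be told apart. The coefficient of variation between libraries had a median over the genes of 27.3% in CRYDKO libraries and 19.6% in WT libraries.

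**Figure D1:**
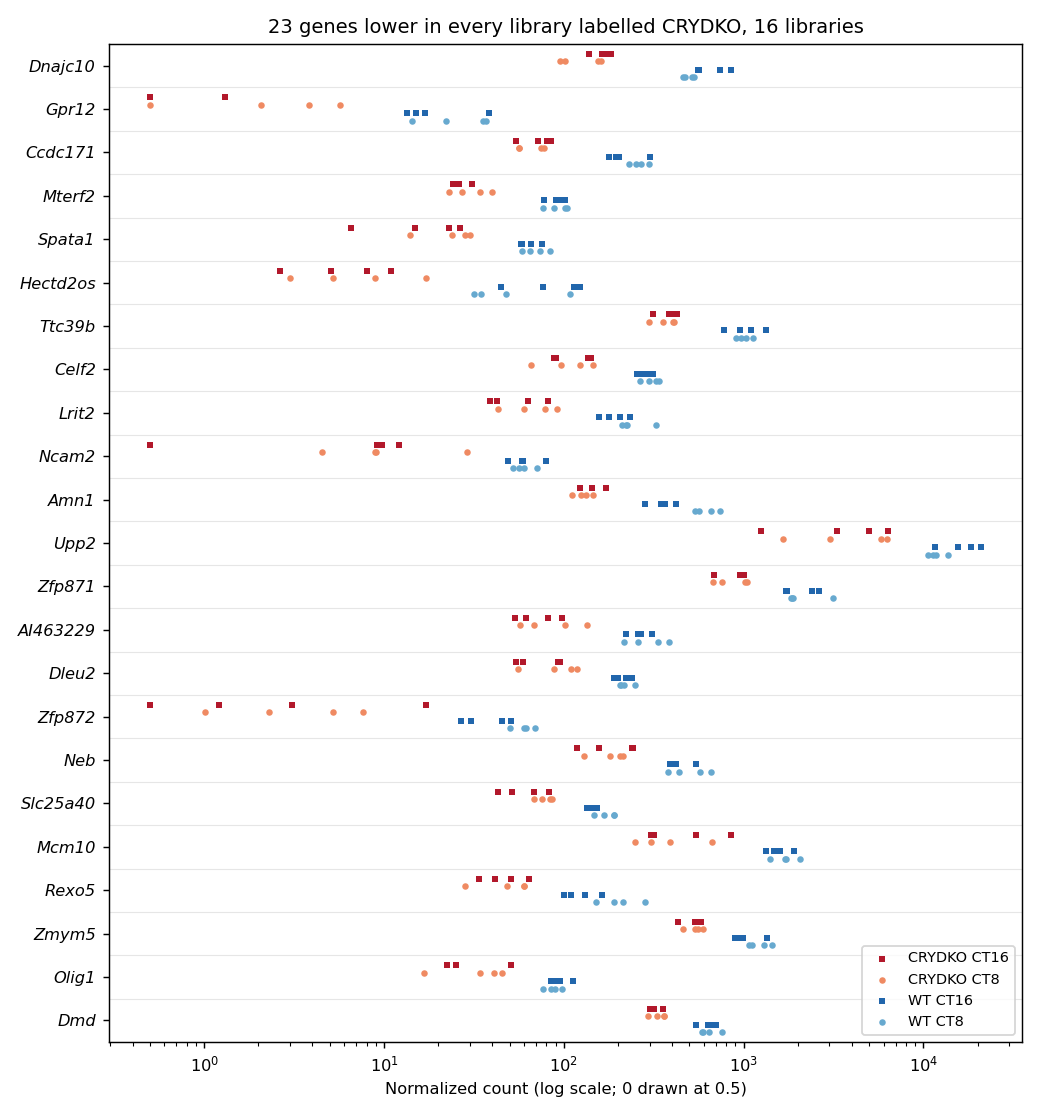
Normalized counts of the 23 genes in each of 16 libraries (log axis, values of 0 drawn at its left end), coloured by group. For every gene the CRYDKO points lie below the WT points, as the choice of the genes requires; the spread within a genotype is smallest for Dmd in CRYDKO libraries (coefficient of variation 8.48%) and for Dleu2 in WT libraries (9.28%).

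Among the metabolic genes, Upp2 was by far the most abundant. It encodes uridine phosphorylase 2, a liver enzyme that splits uridine in pyrimidine breakdown and salvage. Upp2 had 6391, 1242, 3320.0 and 4962 normalized counts in CRYDKO CT16 libraries and 1659, 6277, 5774 and 3021 in CRYDKO CT8 libraries, against 18342, 20884, 11582 and 15476 in WT CT16 libraries and 10549, 13710.4, 11778 and 11365 in WT CT8 libraries. The means were 4081 ± 2050.4 in CRYDKO and 14211 ± 3738 in WT libraries (SD, n = 8 each). Within CRYDKO the libraries spread widely at both dosing times, and the highest, at 6391, was still well under the lowest WT library, at 10549.

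Ttc39b, which in mouse liver lowers the level of the cholesterol sensor LXR, had 427, 315, 385 and 417 normalized counts in CRYDKO CT16 libraries and 354, 297, 407 and 411 in CRYDKO CT8 libraries, against 1339, 777, 958 and 1098 in WT CT16 libraries and 1032, 1132, 964 and 902 in WT CT8 libraries. CRYDKO libraries held 36.7% of the WT mean and stayed close to each other at both times. Mterf2, of the mitochondrial transcription termination factor family, had 30.9, 24.5, 26.3 and 24.3 normalized counts in CRYDKO CT16 libraries and 27.2, 22.9, 34.4 and 39.8 in CRYDKO CT8 libraries, against 90.9, 78.0, 101 and 98.2 in WT CT16 libraries and 76.5, 88.2, 101 and 104 in WT CT8 libraries. Its mean was 28.8 ± 5.86 in CRYDKO and 92.2 ± 10.6 in WT libraries (SD, n = 8 each), and the WT groups averaged 92.1 at CT16 and 92.4 at CT8. Slc25a40, a mitochondrial carrier linked in human cells to glutathione import, ranged from 43.0 to 86.5 in CRYDKO and from 135 to 189.8 in WT libraries, or 44.0% of the WT mean.

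Dnajc10, also called ERdj5, is a chaperone partner that reduces disulfide bonds of misfolded proteins in the endoplasmic reticulum, and it had the widest margin of all. It had 163, 169, 138 and 183 normalized counts in CRYDKO CT16 libraries and 154, 162, 102 and 95.6 in CRYDKO CT8 libraries, against 856, 741, 566 and 557 in WT CT16 libraries and 515, 474, 529.7 and 462 in WT CT8 libraries. The lowest WT library was 2.52 times the highest CRYDKO library. The means were 146 ± 31.8 in CRYDKO and 588 ± 138 in WT libraries (SD, n = 8 each).

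Mcm10, which acts in activating the replication helicase at origins, ranged from 248 to 852 normalized counts in CRYDKO and from 1331 to 2057 in WT libraries. Its CRYDKO libraries spread by a coefficient of variation of 47.2%, against 14.9% in WT. Amn1 is related to a budding yeast protein that opposes exit from mitosis. It had 144, 171, 143 and 123 normalized counts in CRYDKO CT16 libraries and 133, 125, 111 and 145 in CRYDKO CT8 libraries, against 284, 349, 419.6 and 367 in WT CT16 libraries and 738, 655, 568 and 539 in WT CT8 libraries. The WT libraries fell into separate ranges by dosing time, while the CRYDKO libraries overlapped.

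Celf2, an RNA-binding protein that regulates splicing, had 90.0, 87.7, 137 and 141 normalized counts in CRYDKO CT16 libraries and 145, 65.5, 96.7 and 123 in CRYDKO CT8 libraries, against 273, 291, 312 and 256 in WT CT16 libraries and 325, 266, 298 and 339 in WT CT8 libraries. The CRYDKO mean was 37.5% of the WT mean, with a similar SD in both genotypes (29.5 in CRYDKO and 29.2 in WT). Rexo5, an RNA exonuclease, had 51.1, 33.7, 64.4 and 41.3 normalized counts in CRYDKO CT16 libraries and 28.2, 60.3, 48.4 and 60.3 in CRYDKO CT8 libraries, against 110.0, 99.8, 132 and 164 in WT CT16 libraries and 189, 282, 150.2 and 213 in WT CT8 libraries. Its values at the dosing times overlapped in both genotypes.

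Of the transcription-related genes, the zinc finger gene Zfp871 ranged from 675 to 1048 normalized counts in CRYDKO and from 1725 to 3136 in WT libraries. Zfp872, a zinc finger gene as well, had few reads in CRYDKO libraries. It ranged from 0 to 17.1, with 31 reads over 8 libraries, against 26.8 to 69.3 and 476 reads in WT libraries. Zmym5, with a MYM-type zinc finger, ranged from 432 to 591 in CRYDKO and from 899 to 1432 in WT libraries. Olig1, a basic helix-loop-helix factor known from the oligodendrocyte lineage, ranged from 16.6 to 51.1 in CRYDKO and from 77.0 to 113 in WT libraries.

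**Figure D2:**
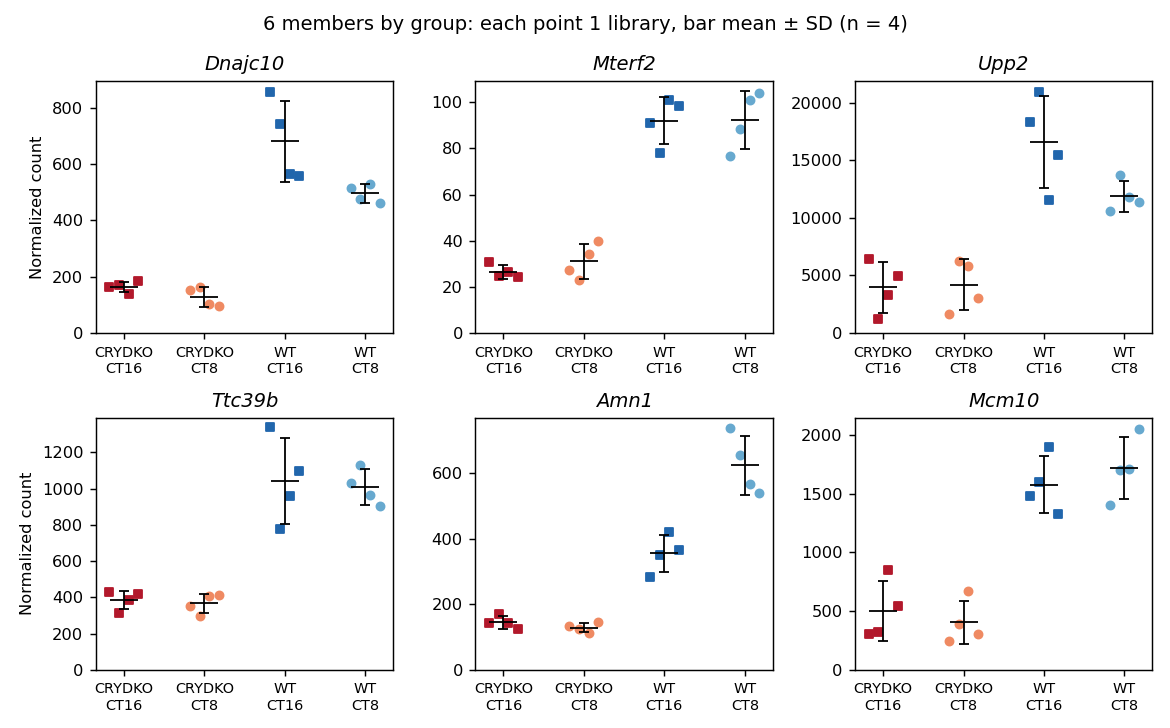
Normalized counts per library (points) with the group mean and SD (lines, n = 4 libraries each) of 6 of the genes in CRYDKO CT16, CRYDKO CT8, WT CT16 and WT CT8. Dnajc10 averages 163 and 128 in the CRYDKO groups against 680.0 and 495 in the WT groups.

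Gpr12, an orphan receptor that raises cyclic AMP and is known from brain and oocytes, was the gene lowest in CRYDKO relative to WT. It had 0, 0, 1.31 and 0 normalized counts in CRYDKO CT16 libraries and 0, 2.08, 3.82 and 5.69 in CRYDKO CT8 libraries, against 13.4, 15.1, 17 and 38.3 in WT CT16 libraries and 14.3, 37.1, 35.6 and 22.1 in WT CT8 libraries. These values rest on 11 reads in all CRYDKO libraries together and 233 in all WT libraries. The CRYDKO CT16 group held 1 read, so no fold between dosing times is given for it.

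Ncam2, a neural cell adhesion molecule, had 12.1, 0, 9.19 and 9.72 normalized counts in CRYDKO CT16 libraries and 9.06, 29.1, 8.91 and 4.55 in CRYDKO CT8 libraries, against 58.3, 59.6, 79.2 and 48.7 in WT CT16 libraries and 56.3, 60.2, 52.0 and 71.3 in WT CT8 libraries. The CRYDKO CT8 library at 29.1 stood above the other CRYDKO libraries and set the margin of 1.67. Lrit2, a membrane protein with leucine-rich repeats and an immunoglobulin domain, had 82.0, 38.8, 63.0 and 42.5 normalized counts in CRYDKO CT16 libraries and 43.3, 79.0, 59.8 and 92.2 in CRYDKO CT8 libraries, against 206, 157, 179 and 232 in WT CT16 libraries and 225, 326, 223 and 210.4 in WT CT8 libraries. The CRYDKO mean was 28.5% of the WT mean. Both muscle genes were long transcripts at low density: Neb, which encodes the thin-filament protein nebulin, ranged from 118 to 243 in CRYDKO and from 380.4 to 658 in WT libraries, and Dmd, which encodes dystrophin, ranged from 295 to 360.2 in CRYDKO and from 542 to 759 in WT libraries.

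Ccdc171, a coiled-coil gene, had 84.7, 54.1, 72.2 and 80.2 normalized counts in CRYDKO CT16 libraries and 56.4, 56.1, 77.6 and 75.1 in CRYDKO CT8 libraries, against 194, 179, 202 and 301 in WT CT16 libraries and 298, 251, 269.6 and 229.9 in WT CT8 libraries. Spata1, named for spermatogenesis, had 14.8, 26.5, 6.57 and 23.1 normalized counts in CRYDKO CT16 libraries and 30.2, 28.1, 14 and 23.9 in CRYDKO CT8 libraries, against 66.0, 57.9, 58.7 and 75.9 in WT CT16 libraries and 64.8, 84.0, 74.2 and 58.5 in WT CT8 libraries. For both genes the values of the dosing times overlapped within each genotype, and the CRYDKO means were 28.9% (Ccdc171) and 30.9% (Spata1) of the WT means.

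The non-coding RNA genes differed in level and spread. Hectd2os, antisense to Hectd2, had 8.06, 5.10, 2.63 and 10.9 normalized counts in CRYDKO CT16 libraries and 3.02, 5.20, 8.91 and 17.1 in CRYDKO CT8 libraries, against 123, 44.5, 114 and 76.7 in WT CT16 libraries and 108, 47.6, 31.8 and 34.8 in WT CT8 libraries. It varied most between WT libraries of all 23 genes (coefficient of variation 52.3% over all 8). Dleu2, the host gene of miR-15a and miR-16-1, ranged from 54.1 to 118 in CRYDKO and from 189.8 to 249 in WT libraries. AI463229 ranged from 53.8 to 135 in CRYDKO and from 217 to 385 in WT libraries.

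Levels can be compared between genes only per length. Per kilobase of annotated exon (GENCODE M21, GRCm38), Upp2 stood at 526 ± 264 normalized counts in CRYDKO and 1831 ± 482 in WT libraries (SD, n = 8 each), above all others in both. Mcm10 followed in WT (59.1 in CRYDKO, 214 in WT), then Zfp871 (80.3 in CRYDKO, 194 in WT) and Zmym5 (74.7 in CRYDKO, 159.5 in WT), and in WT these neighbours in the order differed by less than 1 SD of Zfp871 (46.5). At the low end in WT were Celf2 (4.28 in CRYDKO, 11.4 in WT), Gpr12 (0.642 in CRYDKO, 9.60 in WT) and Ncam2 (0.911 in CRYDKO, 5.36 in WT). In CRYDKO libraries Zfp872 (1.54) and Hectd2os (1.91) also stood below Celf2. The long genes dropped in this order relative to their plain counts: Dmd, with 23801 exon bases, had 13.8 in CRYDKO and 26.9 in WT libraries, and Neb, with 26582, had 6.97 in CRYDKO and 17.9 in WT libraries.

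**Figure D3:**
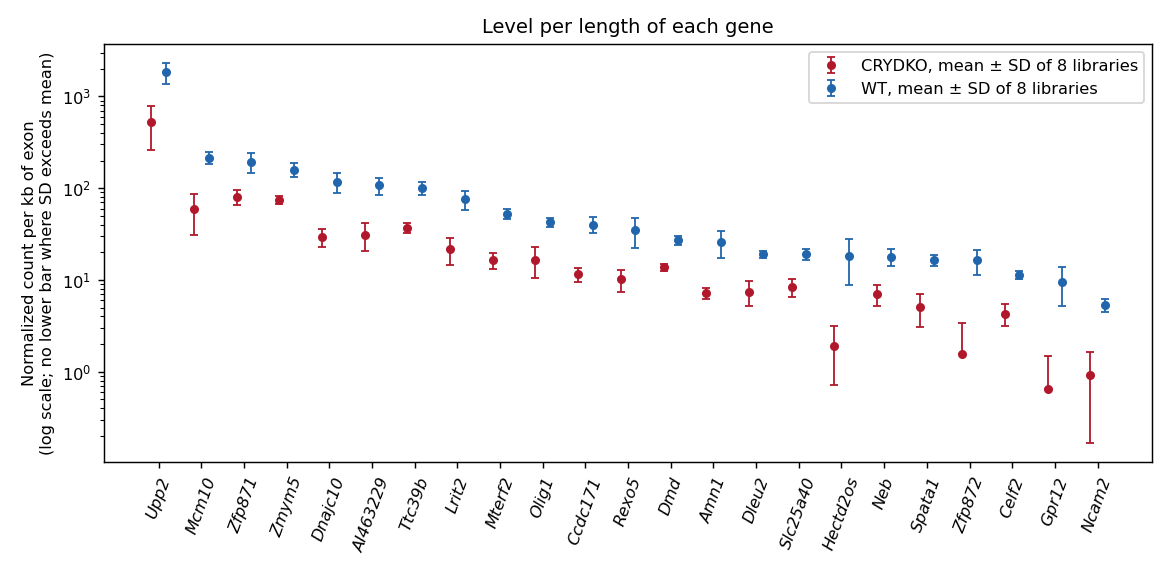
Mean normalized count per kilobase of exon of the 23 genes (log axis; error bars, SD over 8 libraries; no lower bar where the SD exceeds the mean) in CRYDKO and WT libraries, ordered by the WT level. Upp2 is highest at 526 in CRYDKO and 1831 in WT, and Ncam2 is lowest in WT at 0.911 in CRYDKO and 5.36 in WT.

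The margin of 1.5 divides a continuous range, and single libraries weigh on it: 39 genes met it without WT CT16 library 6 and 40 without CRYDKO CT8 library 16, all 23 among them each time. Just inside it were Dmd (1.504), Olig1 (1.508), Zmym5 (1.522), Rexo5 (1.551) and Mcm10 (1.561). Just outside it were Zfp708 (1.493, with at most 72.5 in CRYDKO and at least 108 in WT libraries), Nfib (1.474), Fcho2 (1.471), Chac2 (1.443) and Zfp760 (1.442). The lowest WT library of a gene was in the CT16 group for 16 of the 23 genes and in the CT8 group for 7. The highest CRYDKO library was in the CT16 group for 10 and in the CT8 group for 13. WT CT16 library 6 alone was the lowest WT library for 7 genes. These splits have no like count over all genes beside them, so nothing is read from them.

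Whether the 23 genes differed with the hour of dosing was tested within each genotype. The choice of genes used no time contrast, but it kept genes whose libraries lay apart by genotype at both hours, which favours genes that vary little within a genotype. The counts of genes called by time are therefore a description, and nothing is read from them against the shares of all genes. In CRYDKO libraries, CT16 against CT8, 0 of the 23 passed an adjusted p of 0.05 (edgeR), and 0 of all 14484 genes did (0%). Over all genes, DESeq2 called 14 (0.0986%) and limma voom 0, and of the 23 genes both called 0. By edgeR 1 of the 23 had an unadjusted p under 0.05, beside 938 of all genes. That gene was Gpr12, whose CRYDKO CT16 group held 1 read. The next lowest p-values were those of Dnajc10, with a log2 difference of 0.34 ± 0.18 (SE) and an edgeR adjusted p of 0.784, and of Slc25a40, with -0.36 ± 0.20 and 0.798. The median log2 difference of the 23 genes was -0.06, beside 0.00 over all genes, with 10 above 0 and 13 below.

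In WT libraries, Amn1 was the 1 of 23 genes that passed, and it fell, beside 367 of 14484 genes (2.53%), of which 179 were higher at CT16 (1.24%) and 188 were lower (1.30%). Amn1 averaged 355 ± 55.9 normalized counts in WT CT16 libraries and 625 ± 89.9 in WT CT8 libraries (SD, n = 4 each). Its log2 difference, CT16 minus CT8, was -0.84 ± 0.15 (SE), with an adjusted p of 0.0201 (edgeR quasi-likelihood test, Benjamini-Hochberg adjustment), and all 4 WT CT16 libraries were below all 4 WT CT8 libraries. The call was lost on leaving out WT CT8 library 2 (adjusted p = 0.108) or 4 (0.0838), or WT CT16 library 5 (0.0914) or 6 (0.103), each by edgeR. Rexo5 averaged 126 ± 28.3 in WT CT16 and 209 ± 55.5 in WT CT8 libraries and did not pass (log2 difference -0.75 ± 0.26, edgeR adjusted p = 0.0836), though DESeq2 (0.0496) and limma voom (0.0474) called it. These tools called more of all genes as well, 1526 by DESeq2 (10.5%) and 955 by limma voom (6.59%). Dnajc10 had 0.43 ± 0.17, with an edgeR adjusted p of 0.112. The median of the 23 genes was -0.15, beside -0.04 over all genes, with 6 above 0 and 17 below.

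The difference between the genotypes in the effect of dosing time was tested by the interaction. It passed for 0 of the 23 genes, beside 6 of 14484 (0.0414%; 4 above 0, or 0.0276%, and 2 below, or 0.0138%), by edgeR, while DESeq2 called 1 of the 23, beside 134 of all genes (0.963%), and limma voom 0, beside 1 (0.00690%). By edgeR 1 of the 23 had an unadjusted p under 0.05, beside 1927 of all genes. Amn1 had the lowest p. Its CT16 minus CT8 difference was 0.18 ± 0.16 in CRYDKO (edgeR adjusted p = 0.856) against -0.84 ± 0.15 in WT, an interaction of 1.01 ± 0.22 on the log2 scale (edgeR adjusted p = 0.103). DESeq2 gave it an adjusted p of 0.0146, and without WT CT16 library 8 edgeR gave 0.0275, so the call for Amn1 depends on the tool and on that library. Rexo5 had 0.69 ± 0.38 (edgeR adjusted p = 0.437), and no interaction is given for Gpr12, for the reason above. Cry1 had values much like those of Amn1, with a CT16 minus CT8 difference of 0.09 ± 0.17 in CRYDKO and -1.02 ± 0.18 in WT libraries. The hour of dosing and the clock hour at which the liver was taken cannot be told apart here.

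**Figure D4:**
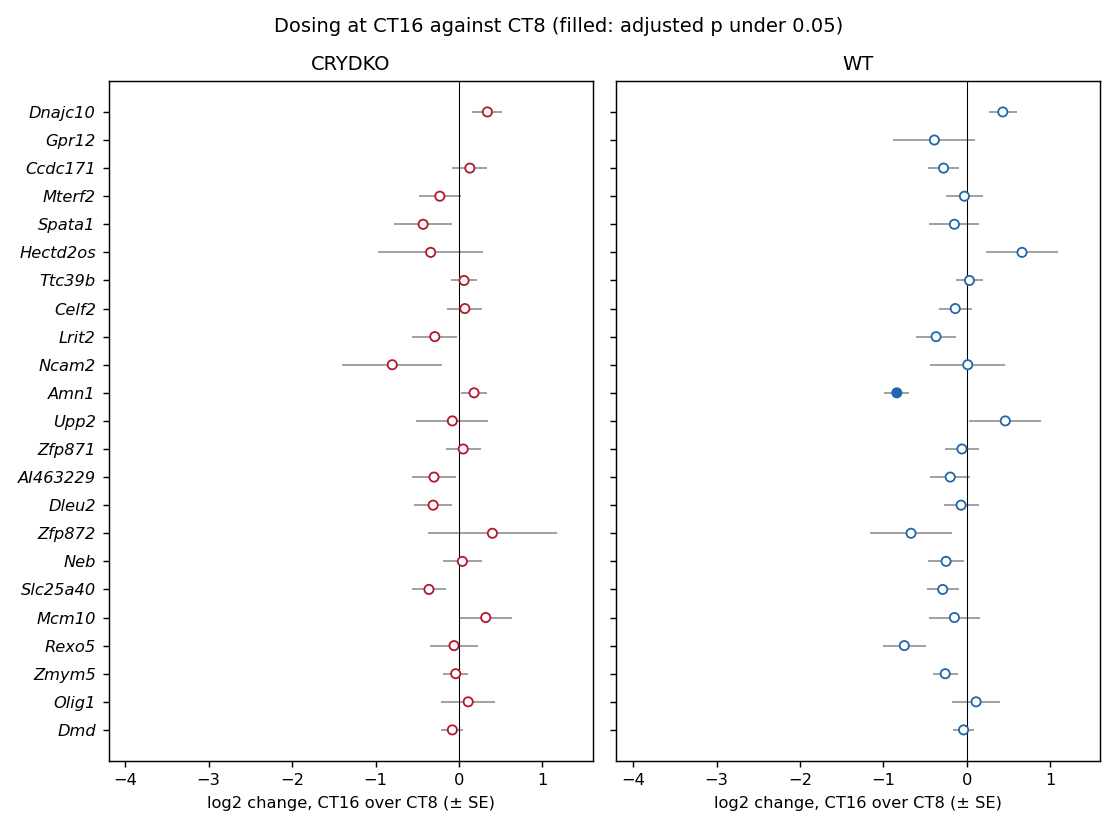
Log2 difference between dosing times, CT16 minus CT8, of the 23 genes within CRYDKO and within WT libraries (points, edgeR estimate; bars, SE). Gpr12 is left out in CRYDKO, where its CT16 group held 1 read. Amn1 is the 1 gene past the threshold, in WT, at -0.84 against 0.18 in CRYDKO.

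By position in RefSeq (GRCm38.p6, a different build from the files'), 14 chromosomes held at least 1 of the 23 genes. Chromosome 2 held 5 (Mcm10, Celf2, Neb, Upp2 and Dnajc10), or 21.7% of the genes against 7.81% of the genes tested, and chromosome 14 held 3 (13% against 3.37%). Cry2 is on chromosome 2 and Cry1 on chromosome 10. Mterf2 lies next to Cry1 on the same strand, with 0 annotated genes between, and Dnajc10 was the only one of the 23 within 20 megabases of Cry2, with 0 within 5. Of the genes tested within 5 megabases of Cry1, 36 of 137 were higher in CRYDKO (26.3%) and 31 lower (22.6%), and of those within 5 megabases of Cry2, 18 of 60 were higher (30.0%) and 11 lower (18.3%). Within 20 megabases of Cry1, 95 of 301 were higher (31.6%) and 55 lower (18.3%), while within 20 megabases of Cry2 the split ran the other way, with 33 of 183 higher (18%) and 54 lower (29.5%). Beside these stand 22.9% higher and 24.2% lower over all genes tested, 47.1% in all. The counts around Cry1 include Mterf2, and those within 20 megabases of Cry2 include Dnajc10, both chosen as lower. Flanking sequence that stays linked to a knocked-out gene was not tested.

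The nearest tested genes on either side of the 23 were not chosen for their values. Of the 46, none of them among the 23, 17 were lower in CRYDKO (37.0%) and 7 higher (15.2%), and 22 did not pass. The 7 include Cry1, the targeted gene beside Mterf2. Over all genes tested, 24.2% were lower and 22.9% higher. Among the 39 that overlap none of the 23, 13 were lower (33.3%). Neighbours on both sides were lower for 4 of the 23 genes, and at least 1 for 13. Both counts include overlapping neighbours and have no like count over all genes beside them, so nothing is read from them. Lrit1, a retinal leucine-rich repeat gene beside Lrit2, was lower by a log2 difference of -1.18 ± 0.23 (edgeR adjusted p = 0.000485). Snapc3, a subunit of the factor that starts small nuclear RNA transcription, lies between Ttc39b and Ccdc171 and was lower too (-1.09 ± 0.22, edgeR adjusted p = 0.00105). Psip1, also between those genes, was higher by 0.40 ± 0.13. Nfib, a nuclear factor I gene 5 tested genes before Ttc39b, is not one of the 46 and lay just outside the margin (1.474). Nothing is therefore read from its log2 difference of -0.99 ± 0.09. Pwp1, also outside the 46 and on the other side of Cry1 from Mterf2, was higher by 0.52 ± 0.12 (edgeR adjusted p = 0.00172).

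**Figure D5:**
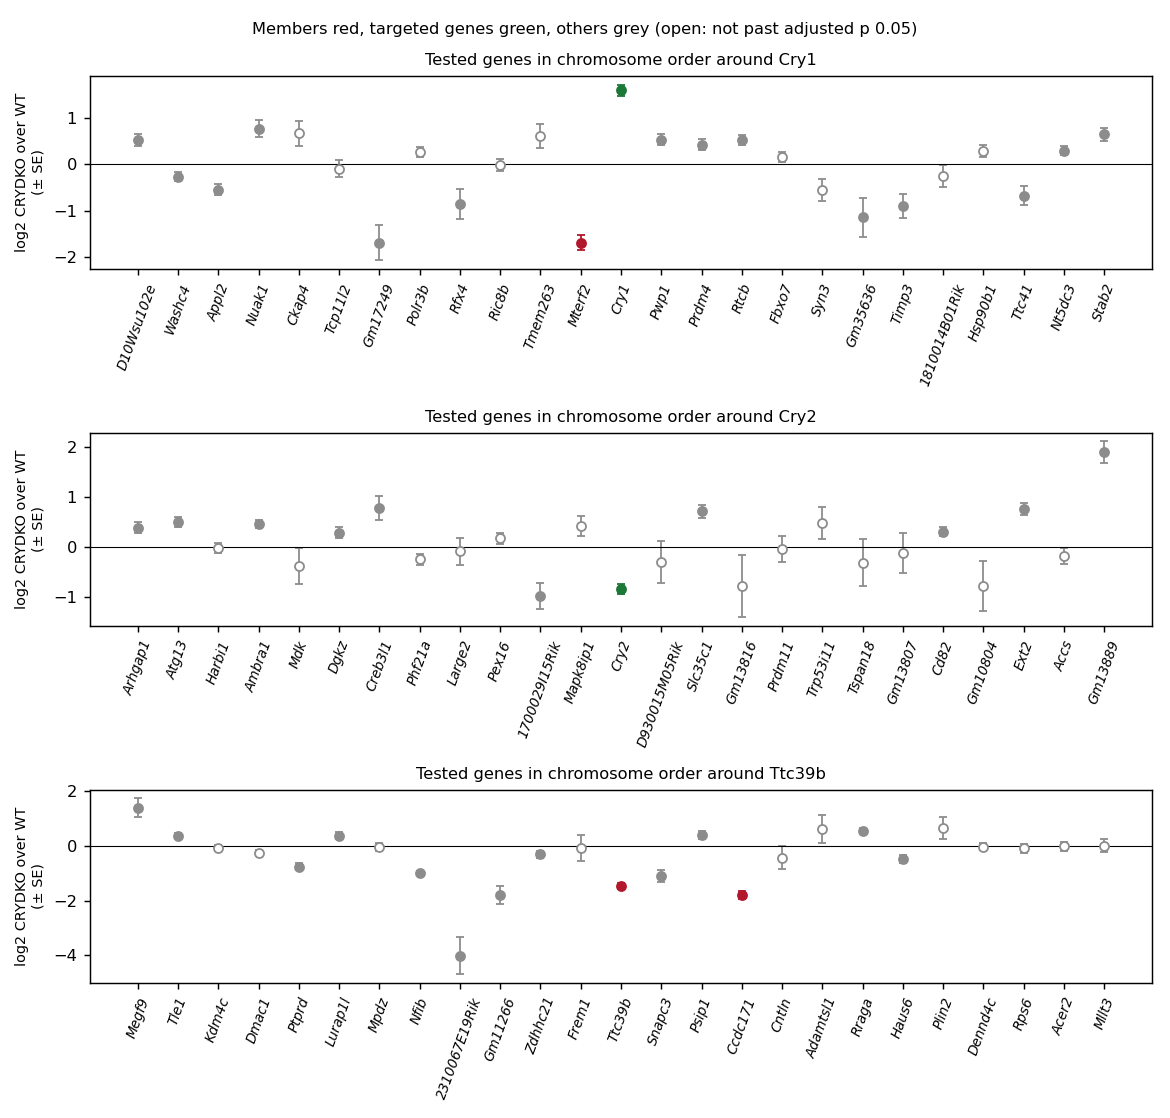
Log2 difference, CRYDKO minus WT (points, edgeR estimate; bars, SE), of tested genes in chromosome order around Cry1, Cry2 and Ttc39b (x axis, rank and not distance; red, genes of the 23; green, Cry1 and Cry2; open, not past the threshold). Mterf2 (-1.69) lies beside Cry1 (1.59), and Ttc39b and Ccdc171 lie below 0 with Snapc3 (-1.09) and, above 0, Psip1 (0.40) between them.

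For 7 of the 23 genes an annotated gene on the opposite strand overlaps, and the strand setting of the counting is not given in the sources used here, so reads of the pair cannot be told apart. The pairs are Mterf2 with Tmem263, Spata1 with Ctbs, Hectd2os with Hectd2, Dleu2 with Trim13, Zfp872 with 1810064F22Rik, Neb with Gm13522 and Rexo5 with Eri2. Of the partners, 4 of 7 were lower in CRYDKO, beside 24.2% of all genes. A partner's count may hold reads of a gene chosen as lower. Nothing is therefore read from this share or from the partner values that follow. 1810064F22Rik, which overlaps Zfp872, had -2.67 ± 0.30 on the log2 scale (edgeR adjusted p = 2.19e-06). Trim13, a ubiquitin ligase gene beside Dleu2, had -1.13 ± 0.27 (edgeR adjusted p = 0.00196). Tmem263 had 0.61 ± 0.26 (edgeR adjusted p = 0.0639) beside Mterf2, and Hectd2 had -0.51 ± 0.25 (0.0939) beside Hectd2os, so neither passed.

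None of the 23 genes was in any of 19 lists of liver pathways and cell type markers. Some list genes, such as Cyp2b9, Nudt7, Selenbp2 and Xaf1, were left out of the choice by name, so nothing is read from this absence. The list genes were tested by genotype beside 22.9% higher and 24.2% lower of all genes and an all-gene median of -0.01. For the clock itself, 4 of 14 tested genes driven by E-boxes and D-boxes were higher in CRYDKO and 3 lower (median log2 difference -0.11), with Per3, a period gene, at -1.06 ± 0.19 (edgeR adjusted p = 0.000333). Of the ROR-driven clock genes, 3 of 4 were higher and 0 lower (median 1.02), Cry1 itself among them. Without Cry1, 2 of 3 were higher (median 0.45), with Arntl, which encodes BMAL1, at 2.36 ± 0.21 (edgeR adjusted p = 1.99e-07). Interferon response genes were lower for 17 of 31 and higher for 0 (median -0.36), with Ifit1 at -1.21 ± 0.18 (edgeR adjusted p = 3.13e-05). Female-biased liver genes were higher for 11 of 18 and lower for 1 (median 1.90), with Cyp2b9 at 7.25 ± 0.51 (edgeR adjusted p = 5.67e-07), and male-biased genes were lower for 5 of 23 and higher for 1 (median -0.76). Of growth hormone signalling genes, 4 of 13 were lower and 1 higher (median 0.19), with the receptor gene Ghr at -0.84 ± 0.14 (edgeR adjusted p = 0.000143).

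Targets of p53 were higher for 7 of 20 and lower for 1 (median 0.42), with Cdkn1a, a cell cycle inhibitor, at 1.32 ± 0.27 (edgeR adjusted p = 0.00123). Class I antigen presentation genes were higher for 6 of 19 and lower for 4 (median 0.12). PPARα targets were higher for 5 of 21 and lower for 2 (median 0.22), and fatty acid synthesis genes were higher for 7 of 15 and lower for 2 (median 0.66). In the cell type lists, hepatocyte markers were higher for 4 of 8 (median 0.43), macrophage markers for 5 of 11 (0.82), endothelial markers for 1 of 9 (-0.01) and stellate cell markers for 6 of 10 (0.72), with 0 lower in each of these. Cholangiocyte markers were higher for 2 of 5 and lower for 1 (median 0.71), and of neutrophil markers 0 of 4 passed (median 0.61). Of 2 erythroid markers tested, Hbb-bs was higher (3.57 ± 0.65) and Alas2 lower (-0.91 ± 0.27), so their median of 1.33 describes neither. No B cell or T and NK cell marker had enough reads to be tested. Over all lists 103 genes passed, 64 higher and 39 lower (62.1% higher). Scaled by library size alone, 96 passed, 38 higher and 58 lower (39.6% higher), since that scaling moved the median of all genes to -0.26.

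Marker levels that moved with genotype are given beside the 23 genes without a claim on what they do to them. Summed normalized counts of hepatocyte markers ranged from 2169804 to 3603453 in CRYDKO and from 1167792 to 2172669 in WT libraries, so the genotypes overlapped by a narrow band. Those of macrophage markers ranged from 1842 to 4929 in CRYDKO and from 759 to 2687 in WT libraries. Stellate cell markers ranged from 2053 to 10113 in CRYDKO and from 2496 to 5489.8 in WT libraries, and endothelial markers ranged from 1792 to 3111 in CRYDKO and from 1137 to 3110.1 in WT libraries. Cholangiocyte markers ranged from 1090.0 to 3355 in CRYDKO and from 589.5 to 2105 in WT libraries, and neutrophil markers ranged from 40.3 to 256 in CRYDKO and from 27.7 to 171 in WT libraries. Erythroid markers ranged from 277 to 997 in CRYDKO and from 648 to 1173 in WT libraries. B cell markers ranged from 4.55 to 35.3 in CRYDKO and from 8.51 to 33.5 in WT libraries, and T and NK cell markers ranged from 10.2 to 46.3 in CRYDKO and from 8.61 to 44.1 in WT libraries. The erythroid marker Hbb-bt was not used in these sums. Of the other markers, none was at 0 in every library. The part of these levels in the lower counts of the 23 genes was not tested.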

How the data were processed

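Poly(A) RNA of 16 mouse liver samples was sequenced. The submitters' processing notes name FastQC, Trimmomatic 0.35, STAR 2.5.3, HTSeq 1.99.2 and DESeq2, with the builds GRCm39 and mm39, without order or role. Annotation, strand setting and parameters are not given in the sources used here. Deposited by the authors were raw counts per gene and a table of normalized counts (unit signal). Compared here, the deposited normalized values equal the counts divided by a size factor of each library within a tolerance of 1e-06, for genes with at least 10 reads in all. In the normalized table, 4 CRYDKO CT8 columns carry the values of another CRYDKO CT8 column of the count table; groups are unaffected, and libraries are numbered after the count table, whose columns name groups and not replicates.

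The 23 genes, the lists and the tests were chosen with earlier results of these data known. Printed levels are the authors' normalized counts. Tests used the counts in edgeR 4.0.16 (TMM scaling, filterByExpr, quasi-likelihood, 16 libraries, 4 groups), with Benjamini-Hochberg adjustment over 14484 genes and a threshold of 0.05. Alternatives were DESeq2 1.42.0, limma voom 3.58.1, other scalings and filters, and each library left out in turn. The fits were tested on simulated data. Values of every library are given for the 12 genes with the widest margin and for genes called in a time test by any tool, ranges for the others, and at most 4 genes per list, by adjusted p. Gene order and promoters are from RefSeq and exon lengths and overlaps from GENCODE M21, both GRCm38, matched by symbol. R 4.3.3, Python 3.11.15, pandas 2.3.3 and matplotlib 3.10.9 were used.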

Additional observations from a re-analysis of the deposited data

Results flagged for a closer look

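In each group of 4 libraries, the gap between the highest or lowest value and the nearest other was compared with the group's range. Of 92 groups over the 23 genes, 5 held a library that stood apart, and chance alone gives about 1 in 20.

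Gpr12 had 38.3 normalized counts in WT CT16 library 8, against 13.4 to 17 in the other WT CT16 libraries. Gpr12 had 1.31 in CRYDKO CT16 library 13, which is a single read, against 0 in the others. Zfp871 had 688 in CRYDKO CT16 library 12, against 959 to 1001 in the others. Zfp871 also had 3136 in WT CT8 library 2, against 1833 to 1878 in the others. Lrit2 had 326 in the same WT CT8 library 2, against 210.4 to 225 in the others.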

How the results depend on the processing

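No paired analysis was possible because the columns carry running numbers over the whole series and no replicate numbers. The smaller of 2 other margins gave 81 genes and the larger, a margin of 2, gave 3. Scaled by library size alone the count was 32, with 21 of the 23 among them, and by TMM it was 23, with 22 of them. Leaving out each library in turn gave 23 to 40 genes, with 39 without WT CT16 library 6 and 40 without CRYDKO CT8 library 16, since fewer libraries make the margin easier to meet. In CRYDKO, 0 of the 23 genes were called by dosing time under all 23 alternatives. In WT, 2 were called with DESeq2, beside 10.5% of all genes, and 2 with limma voom, beside 6.59% (Amn1 and Rexo5 each time). With a library left out, 0 to 3 were called. The 3, without WT CT16 library 8, were Amn1, Dnajc10 and Rexo5. The interaction gave 1 gene with DESeq2 (Amn1), and 0 to 1 with a library left out, the 1 being Amn1 without WT CT16 library 8. Shares of all genes called with a library left out are not given here. Nothing is therefore read from the counts of the 23 genes in those fits. The adjusted p of Amn1 by dosing time in WT lay between 0.00023 and 0.108 over the alternatives, with a log2 difference between -1.09 and -0.71. Where not stated, the cause of these changes was not tested. List genes outside the 23 that passed by genotype numbered 94 to 117. With library size alone their split turned to 38 higher and 58 lower, against 64 and 39. Genes with few reads, such as Gpr12, limit what time contrasts can show.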

Other observations

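The value limits alone were met by 31 more genes that were left out by name: 19 predicted genes with a Gm symbol, 5 with a Rik symbol, 3 of the major urinary protein (Mup) family, 2 Cyp genes and 2 Raet1 genes. None of the 13 single symbols left out by name met them. Cyp2a5, a liver cytochrome P450 that oxidizes coumarin and nicotine, ranged from 4315 to 11694 normalized counts in CRYDKO and from 18022 to 34166 in WT libraries, with means of 8708 in CRYDKO and 25068 in WT. Raet1d and Raet1e, ligands of the natural killer cell receptor NKG2D, ranged from 7.27 to 23.9 in CRYDKO and from 206 to 688 in WT libraries (Raet1d), and from 0 to 13.1 in CRYDKO and from 59.6 to 186 in WT libraries (Raet1e). Mup-ps16, of a family with near-identical copies whose reads the counting could split, ranged from 0 to 15.8 in CRYDKO and from 160.2 to 1103 in WT libraries. Cyp46a1, the brain enzyme that hydroxylates cholesterol, ranged from 3.02 to 28.5 in CRYDKO and from 46.1 to 199.6 in WT libraries. These genes were named after their values were seen.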
